A study of Mus musculus with 14 samples.

Results

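The Hox genes are the 39 genes of the mouse annotation whose symbols are Hox followed by a cluster letter from a to d and a number, out of 55335 genes counted. Hotairm1, a noncoding RNA transcribed from the start of the HoxA cluster, was set beside them. Their levels were measured by single-cell RNA sequencing of whole spinal cords of mice aged P115-120 days, from 14 libraries in 4 groups. The group labelled nTg (3 libraries) had no transgene and served as the control. The group labelled Clec7a-KO (4 libraries, strain B6.129S6-Clec7atm1Gdb/J, here Clec7aKO) lacked Clec7a, the gene of the pattern receptor Dectin-1 of myeloid cells. SOD1G93A (3 libraries, strain B6SJL-Tg(SOD1*G93A)1Gur/J, here SOD1) expressed human SOD1 with the G93A change, whose mice develop motor neuron disease and serve to study amyotrophic lateral sclerosis. The group SOD1G93A/Clec7a-KO (4 libraries, here SOD1_Clec7aKO) carried both changes. The labels give neither the sex of the mice nor whether a library came from 1 mouse, so p-values measure the spread between libraries. Strain backgrounds differed between the named strains, and the background of the nTg mice is not given in the sources used here.

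Hox genes encode homeodomain transcription factors that give cells along the head to tail axis their position. They lie in 4 clusters, and genes at the same place in different clusters form a numbered paralog group. Low-numbered groups are expressed from the hindbrain downwards, and high-numbered groups start further down, so that a lumbar cell has a longer list of Hox genes than a cervical one. In motor neurons of the developing cord this code sets the columns and pools that reach the limbs and the trunk, and cells of the adult cord retain Hox expression. Neurons, astrocytes, ependymal cells and oligodendrocyte precursors descend from the neural tube, whereas microglia descend from yolk sac progenitors that enter the nervous system from outside.

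In GRCm38 coordinates of GENCODE vM21 the HoxA cluster (11 genes) spanned chr6:52155590-52260880 and the HoxB cluster (10 genes) chr11:96194316-96368256. The HoxC cluster (9 genes) spanned chr15:102921103-103036852 and the HoxD cluster (9 genes) chr2:74668310-74765142. All 39 gene identifiers matched this annotation. Hoxd3 with Hoxd4, and Hoxc5 with Hoxc10, have annotated exons that overlap on the same strand, so their counts are uncertain. Promoters of the RefSeq table for GRCm38.p6, from 250 bases before to 50 bases after a start site, were at hand for 22 of the 39 genes. The 4 printed here belong to Hoxb8, the most abundant Hox gene of neurons, and Hoxb4, the leading Hox gene of microglia. The others are Hoxa9, which had the smallest p in astrocytes between SOD1 and nTg, and Hoxd13, near 0 in every class. Each is written from its 5′ end. The capitals mark CG dinucleotides.

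Hoxb8 promoter, chr11:96281655-96281954, plus strand: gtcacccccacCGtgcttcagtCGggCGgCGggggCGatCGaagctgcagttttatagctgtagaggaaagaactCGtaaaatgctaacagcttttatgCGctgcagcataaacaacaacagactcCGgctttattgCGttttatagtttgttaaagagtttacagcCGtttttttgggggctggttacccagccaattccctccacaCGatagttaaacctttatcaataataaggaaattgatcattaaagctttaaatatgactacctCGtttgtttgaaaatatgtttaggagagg
Hoxb4 promoter, chr11:96318017-96318316, plus strand: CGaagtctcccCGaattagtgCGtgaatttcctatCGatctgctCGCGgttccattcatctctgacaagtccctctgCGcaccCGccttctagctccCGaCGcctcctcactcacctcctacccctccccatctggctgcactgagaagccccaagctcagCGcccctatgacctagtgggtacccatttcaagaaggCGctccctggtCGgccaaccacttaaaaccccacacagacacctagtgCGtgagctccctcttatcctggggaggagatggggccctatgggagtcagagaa
Hoxa9 promoter, chr6:52227321-52227620, minus strand: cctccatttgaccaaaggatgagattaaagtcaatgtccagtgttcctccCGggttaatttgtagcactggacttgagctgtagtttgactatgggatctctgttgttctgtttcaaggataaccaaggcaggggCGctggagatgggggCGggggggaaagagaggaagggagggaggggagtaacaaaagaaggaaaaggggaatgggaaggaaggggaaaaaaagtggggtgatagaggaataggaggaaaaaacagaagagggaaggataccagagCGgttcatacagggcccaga
Hoxd13 promoter, chr2:74667975-74668274, plus strand: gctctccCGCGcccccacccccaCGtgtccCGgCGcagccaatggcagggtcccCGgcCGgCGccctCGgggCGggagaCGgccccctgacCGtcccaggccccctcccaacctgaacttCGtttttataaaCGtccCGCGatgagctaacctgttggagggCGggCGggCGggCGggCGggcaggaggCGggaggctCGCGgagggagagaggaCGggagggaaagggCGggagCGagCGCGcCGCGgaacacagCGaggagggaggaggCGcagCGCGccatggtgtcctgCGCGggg

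The Hoxd13 promoter holds 37 CG dinucleotides, against 14 for Hoxb4, 13 for Hoxb8 and 4 for Hoxa9. The median of the 24 Hox promoters of this table was 14.5, and the median of all 32851 promoters of the same length was 7. The motif TGATNNAT, which PBX proteins bind together with Hox proteins, was searched on both strands and occurred in 4 of the 24 Hox promoters (16.7%), among them that of Hoxb8, and in 8.85% of all promoters. The motif TGACAG, bound by MEIS proteins, occurred in 2 of the 24 (8.33%), those of Hoxa2 and Hoxa3, and in 19.2% of all promoters.

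The libraries held 108892 cell barcodes, with 2.88e+07 to 1.41e+08 unique molecular identifiers (UMIs, which count captured RNA molecules) and a median of 5190.5 to 14886 UMIs per barcode. After filters 90018 cells remained, and any 2 libraries shared 2 to 44 barcodes, at most 0.474% of the smaller library. Clec7a in microglia checked the labels: it stood at 788 to 1007 counts per 1000000 UMIs (CPM) in the SOD1 libraries, at 27.4 to 83.0 in nTg, and at 0.988 to 3.94 in the 8 libraries labelled as knockouts. Which exons the knockout lacks is not given in the sources used here. Xist, transcribed from the inactive X chromosome, exceeded the Y-linked Ddx3y in 0 of 3 SOD1 libraries, 1 of 4 SOD1_Clec7aKO libraries, 2 of 3 nTg libraries and 1 of 4 Clec7aKO libraries, so sex and group were not balanced. Library numbers in the labels were 1, 5 and 6 for SOD1 and 8, 9 and 12 for nTg, so the library number cannot be told apart from the group in that contrast.

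Cell classes were rebuilt by clustering with every gene of the Hox clusters left out, so that no Hox value shaped a class. They were named from marker genes: Snap25 and Syt1 among those of neurons, Foxj1 and Tmem212 of the ciliated ependymal cells that line the central canal, Aqp4 and Slc1a2 of astrocytes, Pdgfra and Cspg4 of oligodendrocyte precursors (OPC). Cldn5 and Flt1 were among the markers of endothelial cells, Rgs5 and Kcnj8 of mural cells (pericytes and smooth muscle), and P2ry12 and Tmem119 of microglia. The classes held 1295 neurons, 7695 ependymal cells, 1739 mural cells, 3921 OPC, 5931 astrocytes, 11536 endothelial cells and 35445 microglia. A further 3 clusters, of 1189, 7015 and 7191 cells, scored highest for microglia but stayed unnamed and outside the class, because genes of another class were among their leading ones. They held 0.150, 0.451 and 0.0184% of the cells in nTg and 1.30, 16.03 and 9.21% in SOD1 as means over libraries, with pooled summed Hox levels of 7.83, 5.70 and 6.32 CPM. Their shares in Clec7aKO and SOD1_Clec7aKO are not given here. Library SOD1_Clec7aKO replicate 4 had 7 neurons, under the minimum of 20, and was left out for that class, which leaves 13 libraries and 1288 neurons there. The labels of the samples say all cell types, so the classes are not the study's own.

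Neurons carried the most Hox RNA and microglia nearly none. Levels are given as CPM of the UMIs of a class in a library. Because the assay counts the 3′ end of each molecule once, they need no correction for gene length. Summed over the 39 genes, neurons stood at 2370.2, 2800.4 and 2503 CPM in nTg, at 3342, 2815, 2565 and 2512 in Clec7aKO, at 3164, 2035 and 2527 in SOD1 and at 2751, 1923 and 3561 in SOD1_Clec7aKO. Ependymal cells stood at 1740.0, 1816 and 1763 CPM in nTg, at 1620.3, 1903, 1839.9 and 1679 in Clec7aKO, at 1559, 1360.0 and 1594 in SOD1 and at 1523, 1487, 1664 and 1476 in SOD1_Clec7aKO. Mural cells stood at 1178, 1326 and 1248 CPM in nTg, at 1186, 1143, 1140.2 and 1216 in Clec7aKO, at 1052, 1098 and 1234 in SOD1 and at 981, 649, 1161 and 1320.5 in SOD1_Clec7aKO. The lowest neuron library lay above the highest ependymal library, and the lowest ependymal library above the highest mural library.

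The OPC stood at 733, 849.7 and 815 CPM in nTg, at 773, 776, 878 and 785 in Clec7aKO, at 765, 737 and 760.1 in SOD1 and at 704, 745, 741 and 650.4 in SOD1_Clec7aKO. Astrocytes stood at 817, 1037 and 949 CPM in nTg, at 914, 866, 982 and 891 in Clec7aKO, at 511, 592 and 669 in SOD1 and at 557, 502, 699.9 and 566 in SOD1_Clec7aKO. These 2 glial classes overlapped, and 7 of 14 libraries had more Hox RNA in OPC than in astrocytes. Endothelial cells stood at 183, 219.6 and 177 CPM in nTg, at 215, 154, 206 and 172 in Clec7aKO, at 151, 182 and 114.9 in SOD1 and at 144, 157, 155 and 138 in SOD1_Clec7aKO. Microglia stood at 18.6, 16.1 and 14.6 CPM in nTg, at 26.5, 17.4, 15.3 and 16.3 in Clec7aKO, at 9.03, 6.22 and 6.45 in SOD1 and at 9.74, 5.004, 8.74 and 3.11 in SOD1_Clec7aKO. No microglial library reached the lowest endothelial value, and no endothelial library reached the lowest astrocyte value.

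As means over libraries the levels were 2682 ± 472 (SD, n = 13) CPM in neurons, 1645 ± 157 in ependymal cells, 1138 ± 169 in mural cells, 765 ± 57.2 in OPC, 754 ± 189 in astrocytes, 169 ± 30.3 in endothelial cells and 12.4 ± 6.51 in microglia (n = 14 for these 6). Within libraries, and on the scale of log2(CPM + 1), neurons were 1.82 ± 0.40 (SD) above astrocytes in 13 of 13 libraries (adjusted p = 0.000269) and ependymal cells 1.16 ± 0.27 above astrocytes in 14 of 14 (adjusted p = 0.000168), by a 2-sided exact sign-flip permutation test adjusted over 11 class pairs. Mural cells were 2.75 ± 0.34 above endothelial cells, and endothelial cells differed from astrocytes by -2.13 ± 0.28, each in 14 of 14 libraries (adjusted p = 0.000168). The 6 classes exceeded microglia by 3.83 (endothelial) to 7.69 (neurons), in every library that had the class. These adjusted p-values rest on the smallest p that 14 libraries (0.000122) or 13 (0.000244) can give. The OPC and astrocytes differed by 0.06 ± 0.30 (SD over libraries, adjusted p = 0.457).

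**Figure D1:**
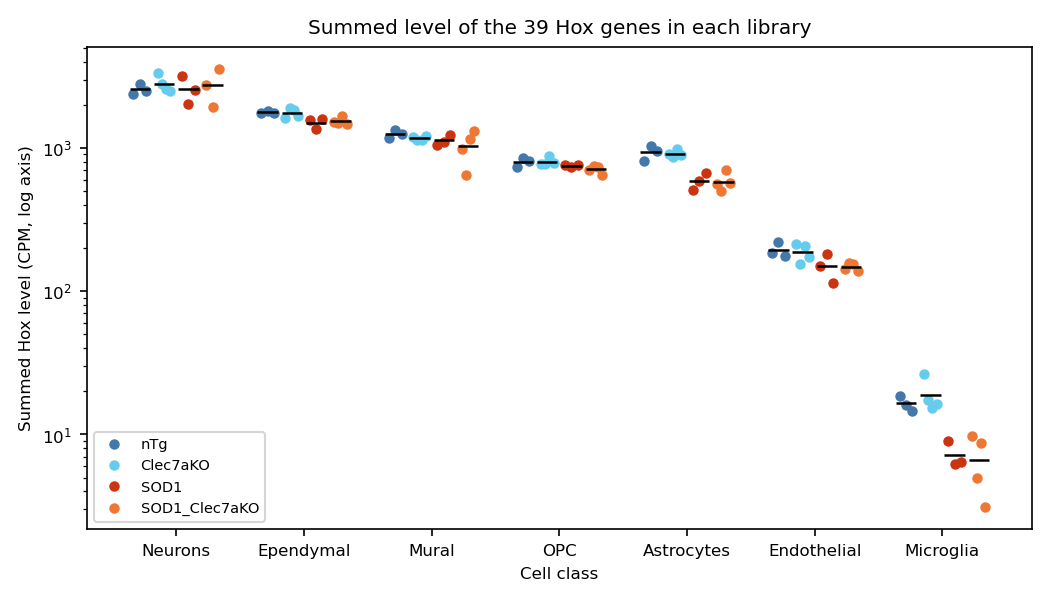
Summed level of the 39 Hox genes (vertical axis, CPM, log scale) in each of 7 cell classes (horizontal axis). Each point is a library, coloured by group, and each bar is the group mean; neurons lie highest at 1923 to 3561 CPM and microglia lowest at 3.11 to 26.5 CPM, and in astrocytes the SOD1 groups lie under the other 2 groups.

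With depth made equal, most cells of 5 classes had a Hox UMI, while endothelial cells and microglia mostly had none. With each cell thinned to 2000 UMIs, 96.5% of neurons, 94.0% of ependymal cells, 87.6% of mural cells, 78.3% of OPC and 76.2% of astrocytes had at least 1 Hox UMI, as means over libraries. The share was 27.5% in endothelial cells and 2.57% in microglia. Cells under 2000 UMIs were left out of these shares: 431 of 1739 mural cells, 1050 of 5931 astrocytes, 213 of 1295 neurons, 319 of 3921 OPC, 315 of 7695 ependymal cells, 850 of 11536 endothelial cells and 955 of 35445 microglia. Without thinning the median Hox UMIs per cell were 12 in neurons, 14 in ependymal cells, 5 in OPC, 4 in astrocytes, 3 in mural cells, 1 in endothelial cells and 0 in microglia, at median depths of 5535, 8771, 7460, 4609, 2928, 6662.5 and 9409 UMIs. Microglia were the deepest of these classes and had the fewest Hox UMIs. Free RNA from other cells can leave UMIs in any droplet, and its part in the microglial share was not tested.

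In neurons the HoxB cluster led. Hoxb8, a thoracic gene needed for the dorsal horn, stood at 223, 519 and 423 CPM in nTg, at 838, 483, 440.4 and 557 in Clec7aKO, at 744, 194 and 413 in SOD1 and at 553, 296 and 923 in SOD1_Clec7aKO. Hoxa7 was at 223, 271 and 176 CPM in nTg, at 279.8, 216, 159 and 205 in Clec7aKO, at 333, 200.4 and 217 in SOD1 and at 289, 311 and 239 in SOD1_Clec7aKO. Hoxb6 was at 143, 324 and 204 CPM in nTg, at 303, 275, 166 and 256 in Clec7aKO, at 315, 124 and 186 in SOD1 and at 214, 60.7 and 219.8 in SOD1_Clec7aKO. Means were 508 ± 221 CPM (SD, n = 13), 239.8 ± 52.9 CPM and 215 ± 79.3 CPM. The groups overlapped for all 3, and Hoxb8 varied most between libraries, from 194 in SOD1 replicate 2 to 923 in SOD1_Clec7aKO replicate 3. The HoxB genes together took 55.4% ± 9.84 of the Hox UMIs of neurons (SD over libraries), HoxA 25.1% ± 4.21, HoxC 14.3% ± 4.20 and HoxD 5.21% ± 2.45. Hoxb7 (214 CPM), Hoxb5 (164), Hoxb9 (155), Hoxa9 (148), Hoxa10 (103), Hoxc8 (101) and Hoxa5 (100.2) made up the rest of the 10 genes above a mean of 100 CPM. Of the other 29 genes, 16 had means above 10 CPM, 12 had lower means above 0, and Hoxd13 had no UMI. Neurons fell into 2 clusters. The larger, of 1062 cells, stood at 3009 CPM, with 66.3% of its Hox UMIs from HoxB and 20.9% from paralog groups 9 to 13. The other held 233 cells with markers of cerebrospinal fluid contacting neurons, such as Pkd2l1, at 2168 CPM, with 30.3% and 40.3%. These are pooled counts over libraries with no test. The Pkd2l1 cluster held 27.0% of the neurons in nTg, 12.4% in Clec7aKO, 10.99% in SOD1 and 26.6% in SOD1_Clec7aKO, and its part in the neuronal values by group was not tested.

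Ependymal cells had UMIs of all 39 Hox genes. Hoxa7, of the thoracic range, stood at 274, 271 and 266 CPM in nTg, at 319, 258, 274 and 229 in Clec7aKO, at 375, 228 and 234 in SOD1 and at 282, 295, 269.7 and 204 in SOD1_Clec7aKO. Hoxc8, which patterns the brachial to thoracic cord, stood at 135, 131 and 163 CPM in nTg, at 199, 175, 154 and 132 in Clec7aKO, at 225, 91.1 and 170.4 in SOD1 and at 163, 188, 145 and 106 in SOD1_Clec7aKO. Hoxb8 was at 140.0, 116 and 136 CPM in nTg, at 163, 145, 146 and 184 in Clec7aKO, at 120.1, 98.5 and 108 in SOD1 and at 127, 157, 140.0 and 141 in SOD1_Clec7aKO. Means were 269.9 ± 42.6 CPM (SD, n = 14), 156 ± 35.98 CPM and 137 ± 22.6 CPM, and the groups overlapped pairwise for Hoxa7 and Hoxc8. For Hoxb8 all Clec7aKO libraries lay above all nTg and SOD1 libraries, and the SOD1_Clec7aKO libraries above the SOD1 libraries. Hoxc6 (103 CPM) was the other gene above 100, and 22 more lay above 10. The clusters shared the UMIs more evenly than in neurons: HoxA 33.01% ± 1.39, HoxB 27.8% ± 1.90, HoxC 27.9% ± 1.82 and HoxD 11.3% ± 2.50. Paralog group 11, of the lumbosacral cord, was led by Hoxd11 (33.4 CPM) and Hoxa11 (12.2), whereas Hoxd12 (0.489), Hoxd13 (0.273) and Hoxa13 (0.641) were near 0.

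In mural cells Hoxb2, a gene best known for hindbrain patterning, was among the leading genes, and few Hox UMIs were of HoxD. The noncoding RNA Hoxb3os spans Hoxb2 on the other strand, and whether counting used strand is not given in the sources used here. Hoxb2 stood at 138, 164 and 106 CPM in nTg, at 112, 163, 136 and 149 in Clec7aKO, at 126, 148 and 125 in SOD1 and at 99.4, 26.7, 146 and 199.9 in SOD1_Clec7aKO. Hoxa7 was at 178, 173 and 141 CPM in nTg, at 174, 166, 127 and 129 in Clec7aKO, at 150.2, 145 and 182 in SOD1 and at 167, 107, 134 and 135 in SOD1_Clec7aKO. Hoxc6 was at 143, 133 and 150.1 CPM in nTg, at 142, 123, 136 and 136 in Clec7aKO, at 106, 86.2 and 151 in SOD1 and at 99.4, 97.8, 146 and 172 in SOD1_Clec7aKO. Hoxb2 was lowest, at 26.7, in SOD1_Clec7aKO replicate 2, which had the lowest summed level of this class, and the groups overlapped for all 3 genes. Means were 131 ± 39.9 CPM (SD, n = 14) for Hoxb2, 151 ± 23.1 CPM for Hoxa7 and 130.1 ± 24.5 CPM for Hoxc6, and Hoxc8 (127) was the other gene above 100. HoxD took 0.619% ± 0.551 of the Hox UMIs, against 37.4% ± 2.93 for HoxB, 34.5% ± 2.91 for HoxC and 27.4% ± 2.94 for HoxA. Hoxb1, Hoxd1, Hoxd3, Hoxd10, Hoxd12, Hoxa13, Hoxb13 and Hoxd13 had no UMI, and Hoxd4, at 24.98 CPM in astrocytes, had a mean of 0.0653 CPM here.

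In OPC the order of leading genes was Hoxa7, Hoxc8 and Hoxd8. Hoxa7 stood at 130.0, 112 and 125 CPM in nTg, at 146, 116, 147 and 121 in Clec7aKO, at 192, 134 and 146 in SOD1 and at 176, 181, 117 and 99.8 in SOD1_Clec7aKO. Hoxc8 was at 79.4, 112 and 90.3 CPM in nTg, at 97.1, 93.8, 129 and 98.3 in Clec7aKO, at 90.4, 74 and 94.5 in SOD1 and at 82.8, 92.7, 90.6 and 84.8 in SOD1_Clec7aKO. Hoxd8 was at 70.6, 67.96 and 88.6 CPM in nTg, at 77.9, 82.4, 80.3 and 117 in Clec7aKO, at 87.6, 66.9 and 74.4 in SOD1 and at 65.9, 81.2, 102 and 98.1 in SOD1_Clec7aKO. Means were 139 ± 27.8 CPM (SD, n = 14), 93.5 ± 13.6 CPM and 82.9 ± 14.8 CPM. The 3 SOD1 libraries lay above the 3 nTg libraries for Hoxa7 and the SOD1_Clec7aKO libraries under the Clec7aKO libraries for Hoxc8 (these overlapped with CPM divided by the TMM factors), while the other pairs of groups overlapped, as did all pairs for Hoxd8. HoxB was low, at 13.7% ± 1.06 of Hox UMIs, with Hoxb8 at 4.38 CPM and Hoxb9 at 0.661 CPM. HoxD, at 15.4% ± 2.40, was higher than in the other classes as a mean, with Hoxd8 its main gene, and Hoxd12, Hoxa13 and Hoxd13 had no UMI.

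In astrocytes HoxC and HoxA led, and no gene reached a mean of 100 CPM. Hoxc8, which acts in brachial motor pools during development, stood at 93.3, 103 and 132 CPM in nTg, at 119, 102, 113 and 119 in Clec7aKO, at 56.1, 90.8 and 94.96 in SOD1 and at 62.4, 64.9, 64.9 and 76.3 in SOD1_Clec7aKO. Hoxa7, of the thoracic range, stood at 92.2, 90.6 and 87.1 CPM in nTg, at 104, 93.01, 91.7 and 66.2 in Clec7aKO, at 77.8, 63.2 and 71.8 in SOD1 and at 80.7, 85.7, 68.1 and 82.7 in SOD1_Clec7aKO. Means over the 14 libraries were 92.3 ± 24.2 CPM (SD) for Hoxc8, 82.5 ± 11.8 CPM for Hoxa7 and 59.4 ± 18.3 CPM for Hoxc6, whose values by library follow with the comparison of groups. All Hoxc8 values of both SOD1 groups lay under those of Clec7aKO, while for Hoxa7 the SOD1 groups lay under nTg and overlapped Clec7aKO. The clusters took 34.8% ± 2.20 (HoxC), 30.7% ± 3.54 (HoxA), 24.3% ± 3.18 (HoxB) and 10.2% ± 1.53 (HoxD) of the Hox UMIs. A mean above 10 CPM was reached by 20 of the 39 genes, UMIs were found for 37, and Hoxd12 and Hoxd13 had none.

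Taken by paralog group, group 8 held the largest share of the Hox UMIs of astrocytes, at 23.1% ± 2.87 (SD, n = 14), followed by group 9 with 15.3% ± 1.25 and group 7 with 13.9% ± 3.49. Group 12 held 0.191% and group 13 held 0.517%. The leading gene of each group from group 2 on was Hoxb2, Hoxa3, Hoxd4, Hoxa5, Hoxc6, Hoxa7, Hoxc8, Hoxc9, Hoxc10, Hoxc11, Hoxc12 and Hoxc13, in that order. Hoxb2, of the hindbrain, stood at 16.5, 29.2 and 21.7 CPM in nTg, at 18.7, 17.2, 19.03 and 12.2 in Clec7aKO, at 14.2, 23.2 and 23.9 in SOD1 and at 12.1, 9.15, 25.3 and 44.5 in SOD1_Clec7aKO. Hoxa5, needed by phrenic motor neurons, stood at 51.6, 66.1 and 52.6 CPM in nTg, at 62.1, 66.4, 66.8 and 54.01 in Clec7aKO, at 23.9, 46.5 and 51.8 in SOD1 and at 59.6, 44.1, 39.6 and 12.7 in SOD1_Clec7aKO. The 4 groups overlapped for Hoxb2. Hoxc12, of the caudal end of the axis, stood at 1.40, 3.38 and 2.14 CPM in nTg, at 0.509, 0.984, 2.33 and 1.74 in Clec7aKO, at 0.748, 3.63 and 1.96 in SOD1 and at 0.390, 0, 1.58 and 0 in SOD1_Clec7aKO. Hoxc13, known for its role in hair and nails, stood at 3.08, 10.1 and 5.47 CPM in nTg, at 0.509, 0.492, 8.16 and 10.5 in Clec7aKO, at 0, 2.90 and 1.57 in SOD1 and at 3.12, 0, 1.58 and 0 in SOD1_Clec7aKO. Both had libraries at 0, and Hoxc13 reached 10.5 CPM in Clec7aKO replicate 4.

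In endothelial cells HoxB held most of the Hox UMIs. Hoxb7, of the thoracic range, stood at 49.9, 49.4 and 44.3 CPM in nTg, at 63.9, 38.7, 51.6 and 46.6 in Clec7aKO, at 52.2, 53.4 and 29.1 in SOD1 and at 45.7, 48.3, 48.8 and 42.1 in SOD1_Clec7aKO. Hoxb9, which patterns thoracic segments, stood at 20.8, 34.98 and 18.97 CPM in nTg, at 27.1, 20.5, 33.6 and 27.6 in Clec7aKO, at 16.97, 22.4 and 10.1 in SOD1 and at 20.6, 20.7, 19.5 and 16.2 in SOD1_Clec7aKO. Hoxb4, known from blood stem cells, stood at 20.9, 29.8 and 27.2 CPM in nTg, at 15.4, 23.2, 28 and 23.7 in Clec7aKO, at 11.8, 25.3 and 18.5 in SOD1 and at 17.9, 12.3, 21.6 and 23.2 in SOD1_Clec7aKO. Means were 47.4 ± 7.92 CPM (SD, n = 14), 22.1 ± 6.70 CPM and 21.3 ± 5.58 CPM, and the groups overlapped for each, except SOD1_Clec7aKO and Clec7aKO for Hoxb9 with CPM divided by the TMM factors. HoxB took 74.7% ± 4.57 of the Hox UMIs, HoxA 19.5% ± 3.48, HoxC 4.54% ± 1.57 and HoxD 1.30% ± 0.531. Hoxa7 (20.1 CPM) and Hoxb6 (10.5) were the other genes above a mean of 10 CPM, and paralog group 7 alone held 40.1% of the UMIs. Hoxc12, Hoxd12, Hoxb13 and Hoxd13 had no UMI.

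In microglia the few Hox UMIs, 4352 over 35445 cells, were led by Hoxb4. Hoxb4 stood at 4.24, 3.89 and 4.18 CPM in nTg, at 3.77, 3.66, 4.07 and 3.93 in Clec7aKO, at 2.83, 2.93 and 2.98 in SOD1 and at 1.96, 2.01, 2.91 and 1.66 in SOD1_Clec7aKO. Hoxa7 was at 2.49, 1.79 and 1.75 CPM in nTg, at 3.22, 1.83, 1.59 and 1.59 in Clec7aKO, at 0.811, 0.307 and 0.337 in SOD1 and at 1.003, 0.508, 0.874 and 0.207 in SOD1_Clec7aKO. Hoxb8 was at 1.19, 1.34 and 1.65 CPM in nTg, at 3.22, 1.70, 1.91 and 1.42 in Clec7aKO, at 0.759, 0.204 and 0.476 in SOD1 and at 0.919, 0.314, 0.546 and 0 in SOD1_Clec7aKO. In these CPM each library of the SOD1 groups lay under each library of nTg and Clec7aKO for all 3 genes. The TMM scaling factors of edgeR differed between the same groups in microglia, at 0.791 to 0.944 with the transgene and 1.03 to 1.23 without. With CPM divided by them, an alternative added after the data were seen, Hoxb4 stood at 3.46, 3.30 and 3.50 in nTg, at 3.16, 3.06, 3.39 and 3.83 in Clec7aKO, at 2.99, 3.48 and 3.39 in SOD1 and at 2.16, 2.42, 3.69 and 2.09 in SOD1_Clec7aKO, with overlap in both contrasts. Hoxa7 and Hoxb8 then still lay lower without overlap in SOD1 against nTg and in SOD1_Clec7aKO against Clec7aKO. Hoxb4 made up 30.9% ± 11.6 (SD, n = 14) of the Hox UMIs of microglia, against 3.95% ± 0.818 of those of the other 6 classes together. Its share was higher in microglia in 14 of 14 libraries, a description without a test, since Hoxb4 was singled out after its values were seen. Across the clusters of immune cells with microglial markers, leaving out 1 of low depth, it stood at 1.98 to 4.34 CPM, while the summed Hox level there ran from 4.91 to 27.4 CPM. No Hox gene reached a mean of 10 CPM in microglia, and Hoxd12 had no UMI.

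**Figure D2:**
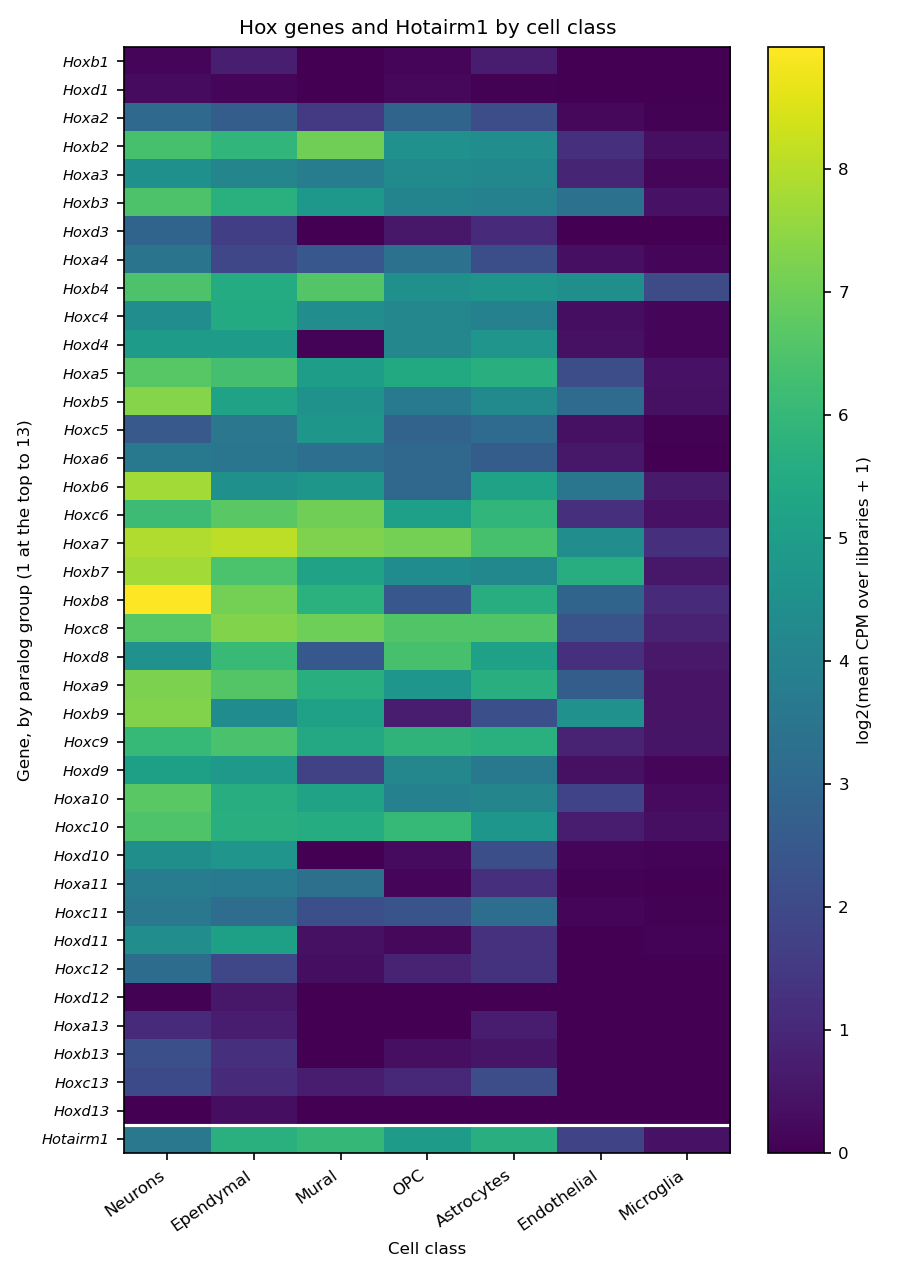
Mean level of Hox genes and of Hotairm1 by cell class, as log2(CPM + 1) in a colour scale (vertical axis, genes by paralog group, horizontal axis, 7 cell classes, each cell the mean of 13 libraries for neurons and 14 for the others). Neurons are brightest for HoxB genes such as Hoxb8 (508 CPM) and mural cells for Hoxb2 (131 CPM). The microglia column is low throughout, with Hoxb4 (3.22 CPM) its highest Hox gene.

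**Figure D3:**
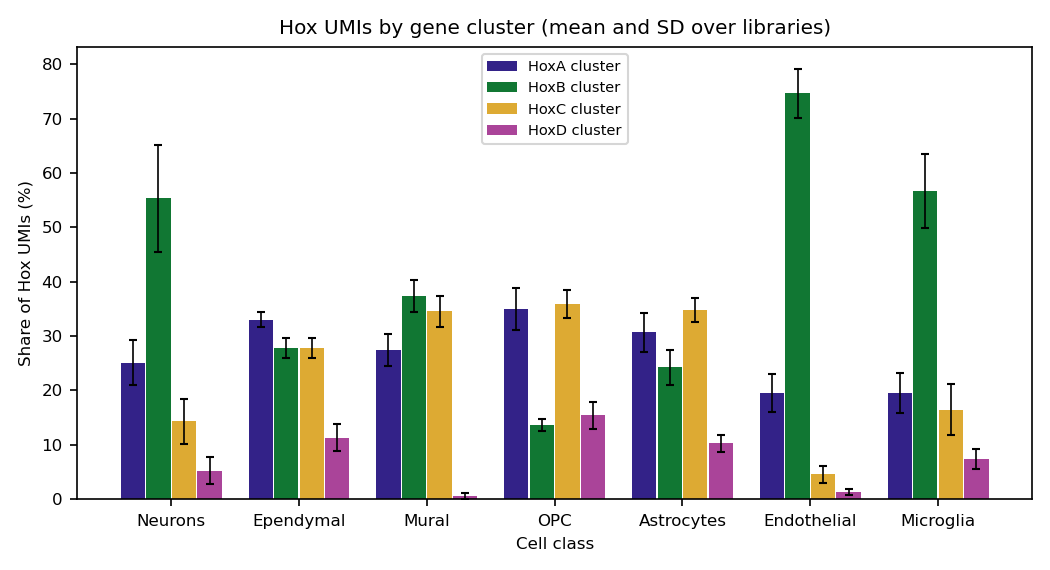
Share of a class's Hox UMIs (vertical axis, percent) that came from each of the 4 clusters HoxA to HoxD, for 7 cell classes (horizontal axis). Bars are means over libraries and error bars 1 SD: HoxB takes 74.7% in endothelial cells and 55.4% in neurons but 13.7% in OPC, and HoxD takes 0.619% in mural cells.

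Paired tests within libraries compared each class with microglia, over all genes that passed a filter on low counts. The test was edgeR's quasi-likelihood test with the library as a block and Benjamini-Hochberg adjustment over all genes tested, and a gene was called at an adjusted p under 0.05. A Hox gene passed the filter through the class where it was high, so the Hox genes that passed had to differ, and their counts support nothing: 29 of 29 were called higher in ependymal cells (of all genes, 88.2% were called either way and 41.1% higher), 26 of 26 in neurons (83.8% and 39.3%) and 25 of 25 in astrocytes (85.3% and 38.8%). The counts were 25 of 25 in OPC (87.3% either way, 39.8% higher), 21 of 21 in mural cells (75.7% and 31.7%) and 14 of 14 in endothelial cells (84% and 38.8%). With no filter on low counts, over all Hox genes with a UMI in either class, 39 of 39 were called higher in ependymal cells (26.3% of all genes higher), 36 of 38 in astrocytes (26.2%) and 35 of 39 in neurons (27.1%). They were 30 of 38 in OPC (25.1%), 28 of 38 in mural cells (15.2%) and 22 of 38 in endothelial cells (21.4%), with none called lower in the 6 classes. With no filter the median log2 fold change of the Hox genes was 6.80 in neurons, 6.36 in ependymal cells, 5.36 in astrocytes, 5.20 in mural cells, 5.12 in OPC and 1.49 in endothelial cells, beside -0.62 to -0.20 for all genes. Fitted values of genes at 0 in a class depend on the prior count, so these medians are no bounds. Without TMM factors and with the filter the median of all genes moved by 0.50 to 1.12.

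Hoxa6 recurred in 4 of 6 classes among the 5 genes with the largest difference from microglia. All 6 comparisons share the microglial values, where Hoxa6 had 6 UMIs in all, so its recurrence supports nothing. These 5 genes are named by class. In astrocytes they were Hoxa6 (7.21 ± 0.35), Hoxd4 (7.13 ± 0.21), Hoxc11 (7.02 ± 0.34), Hoxc6 (6.88 ± 0.24) and Hoxa3 (6.81 ± 0.20) (log2 fold change ± SE). In ependymal cells they were Hoxd11 (8.38 ± 0.25), Hoxa11 (8.18 ± 0.31), Hoxa6 (7.97 ± 0.30), Hoxc4 (7.67 ± 0.23) and Hoxc6 (7.41 ± 0.25), with group 11 in front. In OPC 4 of the 5 were Hoxa6 (7.14 ± 0.32), Hoxc10 (6.89 ± 0.23), Hoxa3 (6.47 ± 0.23) and Hoxa2 (6.31 ± 0.41). Hoxa2 is a hindbrain gene, and Hoxc10 belongs to the lumbar cord. In neurons they were Hoxb5 (8.21 ± 0.23), Hoxa10 (8.07 ± 0.26), Hoxb8 (7.98 ± 0.28), Hoxb7 (7.81 ± 0.21) and Hoxb6 (7.76 ± 0.23). In endothelial cells they were Hoxb7 (6.10 ± 0.19), Hoxb9 (5.47 ± 0.23), Hoxb5 (4.28 ± 0.24), Hoxb3 (4.24 ± 0.21) and Hoxb6 (3.92 ± 0.26), all of HoxB. In mural cells they were Hoxc5 (8.14 ± 0.32), Hoxb2 (8.10 ± 0.17), Hoxc6 (7.88 ± 0.25), Hoxa11 (7.79 ± 0.46) and Hoxa6 (7.69 ± 0.46).

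Against astrocytes, ependymal cells were higher in 22 of 29 Hox genes and lower in 1, where 80% of all genes were called either way, 40.4% higher and 39.7% lower. In this and the following pairs of classes, a Hox gene could pass the filter through the class where it was high. Counts of Hox genes called in a direction thus support nothing on their own. The largest differences of ependymal cells were Hoxd11 (4.01 ± 0.27), Hoxa11 (2.79 ± 0.27), Hoxd10 (2.48 ± 0.19), Hoxb7 (2.20 ± 0.08) and Hoxb9 (2.14 ± 0.15), all higher (largest adjusted p = 1.71e-08). The OPC were higher than astrocytes in 4 of 25 Hox genes and lower in 17 (75.8% of all genes called either way, 37.4% higher, 38.4% lower). With the TMM factors, the largest differences were Hoxb8 (-3.89 ± 0.16), Hoxb6 (-2.72 ± 0.11), Hoxc11 (-1.44 ± 0.21), Hoxa9 (-1.43 ± 0.18) and Hoxc6 (-1.30 ± 0.11) (largest adjusted p = 7.55e-06). Without the factors all differences shift, so this order depends on them. Hoxb8, at 47.2 ± 17.7 CPM in astrocytes and 4.38 ± 1.74 CPM in OPC, was lower in OPC, while Hoxd8 was higher in OPC (82.9 CPM) than in astrocytes (34.5 CPM). The fit used TMM factors, which centre it on the bulk of genes, and without them, as in the CPM and as an alternative added after the data were seen, the median of all genes moved by 0.49 in OPC against astrocytes. The OPC were then higher in 6 Hox genes and lower in 8. Hoxc8, at 93.5 CPM in OPC and 92.3 in astrocytes, differed by -0.46 ± 0.10 with the factors (adjusted p = 0.000253) and by 0.03 ± 0.09 without them (adjusted p = 0.794). For ependymal against astrocytes the median moved by 0.16, with 23 Hox genes higher and 1 lower. The shares of all genes called without the factors are not given here for either pair, so these counts are descriptions.

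Neurons were higher than astrocytes in 14 of 23 Hox genes and lower in 3 (74.1% of all genes called either way, 34% higher, 40.1% lower). The 5 largest differences were Hoxb9 (4.71 ± 0.21), Hoxb7 (3.17 ± 0.12), Hoxb8 (2.88 ± 0.23), Hoxb5 (2.50 ± 0.14) and Hoxa10 (2.19 ± 0.17) (largest adjusted p = 2.11e-09), and 4 of them were HoxB genes. Without TMM factors the median of all genes moved by 0.48, and neurons were higher in 19 and lower in 1, Hoxd8. The shares of all genes called in that setting are not given here. Hoxc8, at 101 CPM in neurons and 92.3 in astrocytes, differed by -0.40 ± 0.17 with the factors (adjusted p = 0.0410) and by 0.08 ± 0.16 without them (adjusted p = 0.660). Between the vascular classes, mural cells were higher than endothelial cells in 17 of 18 and lower in 1, Hoxb7 (69.4% either way, 33% higher, 36.4% lower). A mean above 10 CPM was reached by 19 Hox genes in mural cells and by 5 in endothelial cells. Hox genes could pass the filter through the class where they were high, so this count supports nothing. The largest differences were Hoxc6 (6.55 ± 0.14), Hoxb2 (6.41 ± 0.14), Hoxc10 (5.94 ± 0.23), Hoxc5 (5.88 ± 0.25) and Hoxc4 (5.65 ± 0.29) (largest adjusted p = 5.41e-16). Endothelial cells were higher than astrocytes in 2 of 23 Hox genes, Hoxb7 and Hoxb9, and lower in 20 (83.5% either way, 40.8% higher, 42.7% lower). A mean above 10 CPM was reached by 20 Hox genes in astrocytes and 5 in endothelial cells, so the limit of the filter applies here too. The largest differences were Hoxd4 (-6.36 ± 0.23), Hoxc11 (-6.11 ± 0.34), Hoxc9 (-5.98 ± 0.15), Hoxc4 (-5.61 ± 0.21) and Hoxc6 (-5.58 ± 0.19), all lower (largest adjusted p = 1.83e-11). The median log2 fold change of Hox genes was 0.79 for ependymal cells, -0.39 for OPC, 1.06 for neurons and -3.89 for endothelial cells against astrocytes, and 3.13 for mural against endothelial cells, beside -0.07 to 0.02 for all genes. Without TMM factors the medians for OPC and neurons were 0.09 and 1.54, so the one for OPC changed sign, and the counts of mural against endothelial cells and of endothelial cells against astrocytes did not move.

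Because the whole cord was dissociated, a library mixes cells of all levels. The share of Hox UMIs from paralog groups 9 to 13, here the caudal share, was taken for each class. It also depends on which clusters a class uses, since of these groups HoxB holds only Hoxb9 and Hoxb13. HoxB took 74.7% of the Hox UMIs of endothelial cells, and HoxD 0.619% of those of mural cells. Position along the cord and cluster use cannot be told apart in differences between classes, and their parts were not tested. The caudal share was 25.5% in neurons, 24.8% in ependymal cells, 23.9% in OPC, 23.2% in astrocytes, 19.5% in mural cells, 18.7% in endothelial cells and 15.6% in microglia, as means over libraries with at least 50 Hox UMIs. Astrocytes stood at 24.9, 29.5 and 24.8% in nTg, at 23.04, 22.7, 25.8 and 24.05 in Clec7aKO, at 21.96, 24.5 and 21.8 in SOD1 and at 21.4, 19.5, 22.4 and 17.98 in SOD1_Clec7aKO. The OPC stood at 26.3, 31.7 and 27.99% in nTg, at 25.5, 24.99, 21.6 and 24.7 in Clec7aKO, at 18.4, 26.1 and 22.1 in SOD1 and at 20.5, 22.1, 24.9 and 17.4 in SOD1_Clec7aKO. Mural cells stood at 20, 25 and 19.8% in nTg, at 24.4, 19.2, 19.4 and 20 in Clec7aKO, at 19.2, 21.1 and 21.3 in SOD1 and at 17.97, 12.3, 17.6 and 15.1 in SOD1_Clec7aKO. The SOD1_Clec7aKO libraries held the lowest values of mural cells, and nTg replicate 2 the highest of all 3 classes. Endothelial cells differed from astrocytes by -4.50 percentage points and mural cells by -3.73, with 1 of 14 libraries higher in each (exact sign-flip permutation test, adjusted p = 0.00110 over 6 pairs). Over groups 10 to 13 alone the mural difference turned to 0.412 and was not called (exact permutation adjusted p = 0.433), while the endothelial one was -5.91 (exact permutation adjusted p = 0.000366). Ependymal cells, OPC and neurons did not differ from astrocytes past the threshold (adjusted p = 0.368 each), nor mural from endothelial cells (0.772 points, exact permutation adjusted p = 0.402). Over groups 10 to 13 alone mural cells exceeded endothelial cells by 6.33 points (exact permutation adjusted p = 0.000366), and ependymal cells and OPC exceeded astrocytes by 3.16 and 3.14 (exact permutation adjusted p = 0.0117 and 0.000488).

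Over the 14 libraries the caudal share of astrocytes moved with that of OPC (Pearson's r = 0.80, permutation p = 0.00076, adjusted 0.00304 over 4 relations; Spearman's rho = 0.73, permutation p = 0.00418, adjusted 0.0167). Without the 2 libraries farthest from the astrocyte median r was 0.52, and it was 0.73 over the 7 libraries with the transgene and 0.62 over the 7 without. With mural cells r was 0.75 (permutation p = 0.00246, adjusted 0.00492; rho = 0.66, permutation p = 0.0120, adjusted 0.0241), 0.56 without the 2 libraries, 0.78 with and 0.46 without the transgene. Over groups 10 to 13 alone it was 0.48 (permutation, adjusted p = 0.135). With endothelial cells r was 0.63 (permutation p = 0.0193, adjusted 0.0257; rho = 0.39, permutation p = 0.175, adjusted 0.234) and fell to 0.08 without the 2 libraries, so that relation rests on them, and was 0.45 over groups 10 to 13 alone (permutation, adjusted p = 0.135), with 0.23 and 0.67 within the sets with and without the transgene. With ependymal cells r was 0.28 (permutation p = 0.319, adjusted 0.319; rho = 0.29, permutation p = 0.306, adjusted 0.306), 0.49 without the 2 libraries, 0.09 with and 0.64 without the transgene. Classes of a library share the tissue, the dissociation and the sequencing run, and the part of each was not tested.

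In neurons and mural cells, of 5 classes tested, caudal Hox genes were found in the same cell more with genes of group 9 than with genes of groups 4 and 5. Cells were thinned to 2000 UMIs, and the cells with a UMI of both of 2 sets of genes were compared with the number expected if the sets were independent within a library. The expected number was taken over a whole class, which can mix unlike cells. The 2 neuron clusters had 20.9 and 40.3% of their Hox UMIs from groups 9 to 13, and the part of such mixing in these ratios was not tested. In neurons, genes of groups 10 and 11 were found together with group 9 in 153 cells where 123 were expected, a log2 ratio of 0.31 ± 0.21 (SD), above 0 in 12 of 13 libraries (exact sign-flip permutation test, adjusted p = 0.00732 over 15 tests). In mural cells it was 58 against 42.1 cells (0.46 ± 0.48, above 0 in 10 of 12 libraries, exact permutation adjusted p = 0.0300) and in astrocytes 164 against 137 (0.25 ± 0.29, 10 of 13, exact permutation adjusted p = 0.0300). Groups 10 and 11 with the more rostral groups 4 and 5 gave -0.06 in neurons, -0.29 in mural cells and -0.02 in astrocytes. The difference of the log2 ratios was 0.36 ± 0.28 in neurons (11 of 13 libraries, exact permutation adjusted p = 0.0110), 0.76 ± 0.53 in mural cells (11 of 12, adjusted p = 0.00732) and 0.27 ± 0.39 in astrocytes (10 of 13, adjusted p = 0.0659). At 4000 UMIs a cell the difference fell to 0.14 in neurons and was not called (exact permutation adjusted p = 0.0599), while it was 0.53 in mural cells and 0.37 in astrocytes (exact permutation adjusted p = 0.0345 each). Without thinning it was 0.22 in neurons, 0.36 in mural cells and 0.28 in astrocytes, each called. In ependymal cells the log2 ratio with group 9 was above 0 in 13 of 14 libraries but had a mean of 0.07, since SOD1_Clec7aKO replicate 4 stood at -2.56 (exact permutation adjusted p = 0.999), with 796 cells against 700.0 expected over all libraries. At 4000 UMIs a cell it was 0.20 there (exact permutation adjusted p = 0.0286). In OPC it was -0.00 ± 0.58 (7 of 13 libraries) and 0.25 without thinning (exact permutation adjusted p = 0.00110).

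By single pairs of genes, both from groups 10 to 13, 15 of 15 pairs in ependymal cells were found together more often than expected, with a median log2 ratio of 0.70, and 15 of 15 in neurons, with a median of 1.03. Pairs of a gene of groups 1 to 5 with one of groups 10 to 13 had medians of -0.07 in ependymal cells, -0.28 in neurons, -0.15 in OPC and 0.05 in astrocytes, where 17 of 27 were positive. Pairs within groups 1 to 5 were positive in 29 of 36 in ependymal cells, 36 of 66 in neurons, 20 of 36 in astrocytes and 26 of 55 in OPC. Pairs share genes and cells, so these counts are descriptions without a test. The part of the clusters within a class in them was not tested either.

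**Figure D4:**
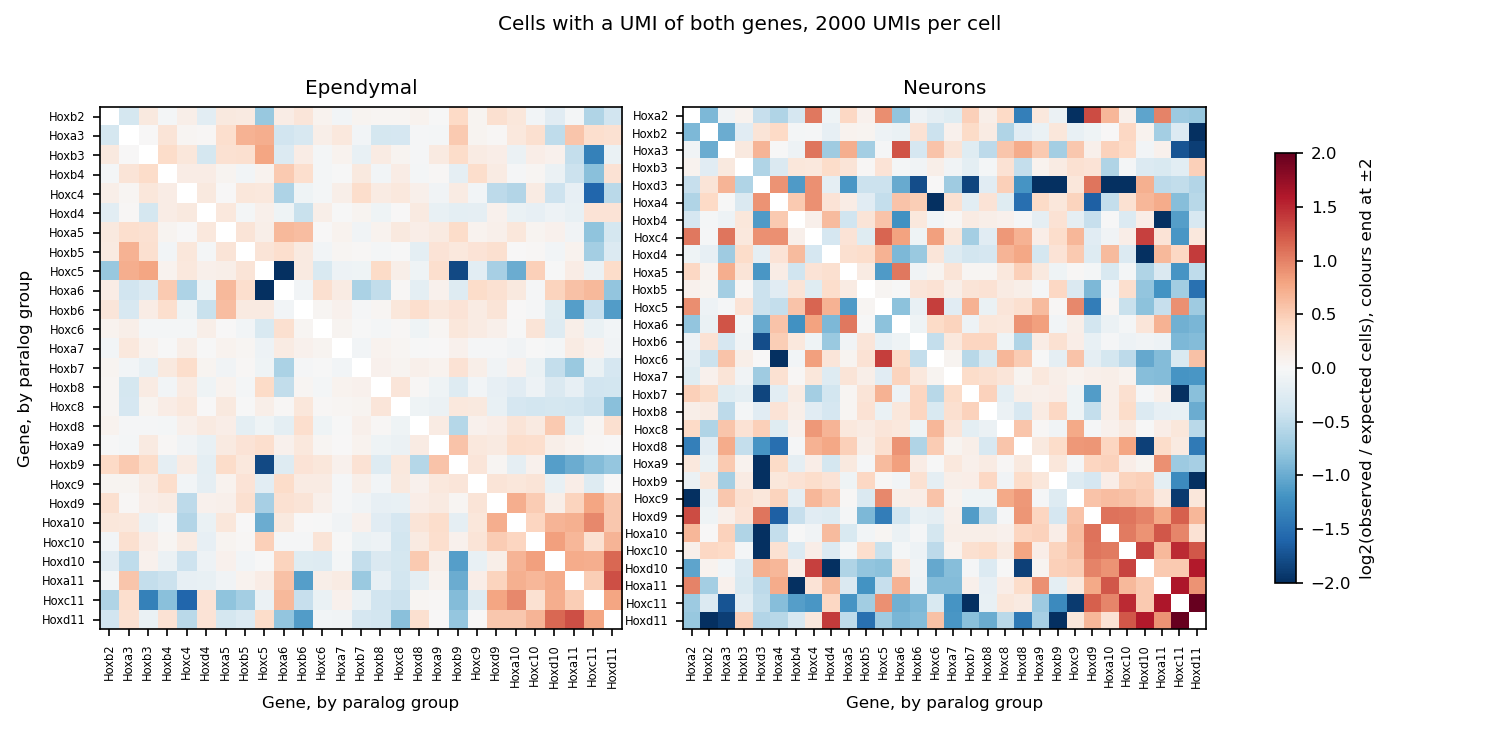
Pairs of Hox genes found in the same cell, in ependymal cells and in neurons thinned to 2000 UMIs. Both axes list genes by paralog group and the colour gives log2 of observed over expected cells, with the scale ended at -2 and 2: pairs within groups 10 to 13 are above 0 in 15 of 15 cases in each class.

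Across the 4 groups, the summed Hox level of astrocytes was lower with the SOD1 transgene, with no overlap, in mice with and without Clec7a. On the scale of log2(CPM + 1) the difference was -0.66 ± 0.15 (SE) between SOD1 and nTg (exact permutation test, p = 0.1, the smallest that 3 against 3 libraries can give, adjusted p = 0.35 over 28 tests). Between SOD1_Clec7aKO and Clec7aKO it was -0.66 ± 0.11 (exact permutation p = 0.0286, the smallest for 4 against 4, adjusted p = 0.267). The microglial level was also lower without overlap, by -1.09 ± 0.18 and -1.45 ± 0.36 (exact permutation p = 0.1 and 0.0286, adjusted p = 0.35 and 0.267). The part of free RNA from other cells in the microglial differences was not tested. Ependymal cells differed by -0.24 ± 0.07 between SOD1 and nTg and OPC by -0.18 ± 0.06 between SOD1_Clec7aKO and Clec7aKO, each without overlap (exact permutation p = 0.1 and 0.0286, adjusted p = 0.35 and 0.267). The loss of Clec7a moved the summed level of astrocytes by -0.02 ± 0.15 with the transgene and by -0.03 ± 0.11 without it. With CPM divided by the TMM factors the microglial differences were -0.70 and -1.03, still without overlap, the astrocyte ones -0.59 and -0.61, and the OPC one -0.10, with overlap, while the endothelial levels of SOD1_Clec7aKO and Clec7aKO, which overlapped in CPM, no longer did. None of the 28 differences passed an adjusted p of 0.05 on either scale. The caudal share passed in 0 of 28 tests as well; astrocytes differed by -3.67 and -3.58 percentage points with the transgene, OPC by -6.43 between SOD1 and nTg and by -4.44 between Clec7aKO and nTg, and mural cells by -4.99 between SOD1_Clec7aKO and Clec7aKO and by -4.74 between SOD1_Clec7aKO and SOD1, each without overlap (exact permutation, adjusted p of at least 0.4).

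Gene by gene, 28 Hox genes passed the filter in astrocytes, and 10 of them fell in SOD1 against nTg while none rose, where 35.4% of all genes were called either way and 15.7% lower. The median log2 fold change of the 28 was -0.57, beside -0.00 for all genes. In SOD1_Clec7aKO against Clec7aKO, which shares no library with the former, 13 of 28 fell and none rose (33.4% of all genes either way, 15.2% lower), with a median of -0.69 beside -0.04. The lists had 7 genes in common, 70% of the first and 53.8% of the second: Hoxa3, Hoxa9, Hoxa10, Hoxb4, Hoxc5, Hoxc6 and Hoxc10. How many of all genes were called in both contrasts was not counted. The overlap is thus a description and says nothing particular to Hox genes. All p-values of genes here are from edgeR's quasi-likelihood test with Benjamini-Hochberg adjustment over all genes of the class, with 14 libraries in the fit (13 for neurons).

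Of the HoxA cluster 4 genes were called. Hoxa3, needed for thymus and parathyroid and active in the hindbrain, stood at 15.4, 33.8 and 25.5 CPM in nTg, at 20.2, 23.6, 34.6 and 20.03 in Clec7aKO, at 8.97, 6.53 and 9.42 in SOD1 and at 13.3, 4.16, 17.4 and 12.7 in SOD1_Clec7aKO. Hoxa9, a gene of the trunk and of blood progenitors, stood at 62.5, 94.3 and 69.96 CPM in nTg, at 65.1, 59.1, 68.4 and 51.4 in Clec7aKO, at 35.9, 31.9 and 26.7 in SOD1 and at 28.1, 20.8, 42.8 and 38.2 in SOD1_Clec7aKO. Hoxa10, of the lumbar cord and hindlimb level, stood at 14.3, 31.3 and 24.03 CPM in nTg, at 19.8, 23.6, 31.1 and 15.7 in Clec7aKO, at 5.23, 13.1 and 10.2 in SOD1 and at 10.1, 7.49, 12.7 and 6.36 in SOD1_Clec7aKO. Both SOD1 groups lay under their counterparts without overlap for all 3. The log2 fold change was -1.48 ± 0.37 in SOD1 against nTg (adjusted p = 0.00514) and -1.07 ± 0.35 in SOD1_Clec7aKO against Clec7aKO (adjusted p = 0.0277) for Hoxa3, and -1.20 ± 0.22 in SOD1 against nTg (adjusted p = 0.000649) and -0.98 ± 0.22 in SOD1_Clec7aKO against Clec7aKO (adjusted p = 0.00254) for Hoxa9. For Hoxa10 it was -1.20 ± 0.34 in SOD1 against nTg (adjusted p = 0.0107) and -1.18 ± 0.34 in SOD1_Clec7aKO against Clec7aKO (adjusted p = 0.0130). Hoxa6, of the brachial cord, stood at 10.1, 10.1 and 7.61 CPM in nTg, at 6.78, 8.86, 9.71 and 2.61 in Clec7aKO, at 3.74, 2.90 and 2.35 in SOD1 and at 4.29, 3.33, 1.58 and 0 in SOD1_Clec7aKO. The log2 fold change of Hoxa6 was -1.59 ± 0.44 in SOD1 against nTg (adjusted p = 0.00984) and -1.06 ± 0.44 in SOD1_Clec7aKO against Clec7aKO (adjusted p = 0.0725), the former called and without overlap, the latter not called. Hoxa7, the most abundant gene of the cluster, was not called (-0.27 ± 0.17, adjusted p = 0.231, and -0.11 ± 0.16, adjusted p = 0.636).

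Of the HoxB cluster 2 genes were called. Hoxb4, active from the hindbrain border down and in blood stem cells, stood at 26.9, 40.9 and 29.3 CPM in nTg, at 34.1, 20.2, 34.2 and 32.2 in Clec7aKO, at 11.2, 10.9 and 15.3 in SOD1 and at 14.03, 16.6, 23.8 and 25.4 in SOD1_Clec7aKO. Hoxb6, of the brachial to thoracic range, stood at 40.1, 48.5 and 42.1 CPM in nTg, at 41.7, 45.3, 46.2 and 38.3 in Clec7aKO, at 23.2, 22.5 and 39.2 in SOD1 and at 23.4, 14.97, 39.6 and 25.4 in SOD1_Clec7aKO. The log2 fold change of Hoxb4 was -1.27 ± 0.26 in SOD1 against nTg (adjusted p = 0.00142) and -0.72 ± 0.25 in SOD1_Clec7aKO against Clec7aKO (adjusted p = 0.0339). SOD1 and nTg did not overlap, while SOD1_Clec7aKO and Clec7aKO overlapped, with Clec7aKO replicate 2 at 20.2 CPM. For Hoxb6 it was -0.52 ± 0.24 in SOD1 against nTg (adjusted p = 0.103) and -0.76 ± 0.24 in SOD1_Clec7aKO against Clec7aKO (adjusted p = 0.0234), with overlap between SOD1_Clec7aKO and Clec7aKO and a call there only. Hoxb2 (-0.04 ± 0.32 and -0.05 ± 0.34) and Hoxb7 (0.12 ± 0.26 and -0.31 ± 0.27) were not called.

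Of the HoxC cluster 7 genes were called. Hoxc4, of the cervical range, stood at 15.1, 21.2 and 21.9 CPM in nTg, at 18.99, 18.7, 23.3 and 20.03 in Clec7aKO, at 15.7, 13.1 and 12.6 in SOD1 and at 8.58, 4.99, 7.92 and 0 in SOD1_Clec7aKO. Hoxc5, which with Hoxa5 specifies phrenic motor neurons, stood at 9.25, 12.9 and 9.99 CPM in nTg, at 11.7, 9.84, 11.7 and 12.2 in Clec7aKO, at 3.74, 5.81 and 5.49 in SOD1 and at 5.07, 3.33, 7.92 and 0 in SOD1_Clec7aKO. Hoxc6, which marks the forelimb motor column, stood at 60.3, 76.2 and 75.4 CPM in nTg, at 74.6, 71.4, 84.7 and 74.9 in Clec7aKO, at 42.6, 29.8 and 40.4 in SOD1 and at 36.3, 40.8, 53.8 and 69.9 in SOD1_Clec7aKO. In SOD1_Clec7aKO all 4 libraries lay under those of Clec7aKO for each of these genes, and Hoxc4 in SOD1 overlapped nTg. The log2 fold change was -0.44 ± 0.25 in SOD1 against nTg (adjusted p = 0.190) and -1.47 ± 0.28 in SOD1_Clec7aKO against Clec7aKO (adjusted p = 0.000894) for Hoxc4, called in the latter. It was -0.999 ± 0.32 in SOD1 against nTg (adjusted p = 0.0228) and -1.16 ± 0.33 in SOD1_Clec7aKO against Clec7aKO (adjusted p = 0.0118) for Hoxc5, and -0.83 ± 0.19 in SOD1 against nTg (adjusted p = 0.00351) and -0.70 ± 0.18 in SOD1_Clec7aKO against Clec7aKO (adjusted p = 0.00776) for Hoxc6.

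Hoxc8, with the values given above, had log2 fold changes of -0.37 ± 0.18 in SOD1 against nTg (adjusted p = 0.131) and -0.73 ± 0.17 in SOD1_Clec7aKO against Clec7aKO (adjusted p = 0.00436). Hoxc9, which sets the thoracic motor columns, stood at 63.3, 63.9 and 54.7 CPM in nTg, at 64.6, 61.5, 68.4 and 57.5 in Clec7aKO, at 34.4, 46.5 and 57.7 in SOD1 and at 38.2, 37.4, 45.9 and 31.8 in SOD1_Clec7aKO. Hoxc10, of the lumbar cord, stood at 25.2, 50.1 and 35.9 CPM in nTg, at 31.9, 24.1, 35.4 and 35.7 in Clec7aKO, at 14.2, 13.8 and 20.4 in SOD1 and at 14.4, 14.1, 22.2 and 19.1 in SOD1_Clec7aKO. Hoxc11, of the lumbosacral cord, stood at 8.69, 24.9 and 15.7 CPM in nTg, at 4.24, 7.38, 11.3 and 13.1 in Clec7aKO, at 5.98, 8.71 and 3.14 in SOD1 and at 5.85, 3.33, 6.33 and 0 in SOD1_Clec7aKO. For Hoxc9 and Hoxc10 the SOD1_Clec7aKO libraries lay under all Clec7aKO libraries, and for Hoxc10 the SOD1 libraries under all nTg libraries. The log2 fold change was -0.31 ± 0.17 in SOD1 against nTg (adjusted p = 0.174) and -0.63 ± 0.17 in SOD1_Clec7aKO against Clec7aKO (adjusted p = 0.00885) for Hoxc9, called in the latter, and -1.09 ± 0.26 in SOD1 against nTg (adjusted p = 0.00385) and -0.90 ± 0.26 in SOD1_Clec7aKO against Clec7aKO (adjusted p = 0.0140) for Hoxc10. For Hoxc11 it was -1.48 ± 0.49 in SOD1 against nTg (adjusted p = 0.0273) and -0.68 ± 0.53 in SOD1_Clec7aKO against Clec7aKO (adjusted p = 0.352), and although called in the former its libraries overlapped.

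Of the HoxD cluster 3 genes were called, each in 1 of these 2 contrasts. Hoxd4, of the hindbrain and cervical range, stood at 26.1, 35.9 and 34.98 CPM in nTg, at 29.8, 31, 34.96 and 28.7 in Clec7aKO, at 11.97, 16.7 and 18.8 in SOD1 and at 16.8, 27.4, 30.1 and 6.36 in SOD1_Clec7aKO. Hoxd8, of the trunk, stood at 36.2, 38.1 and 39.3 CPM in nTg, at 37.3, 41.3, 40.01 and 48.8 in Clec7aKO, at 24.7, 31.2 and 35.3 in SOD1 and at 20.7, 21.6, 42.8 and 25.4 in SOD1_Clec7aKO. Hoxd9, which acts in lumbar segments with its paralogs, stood at 12.1, 11.4 and 14.8 CPM in nTg, at 14.2, 11.3, 14.8 and 17.4 in Clec7aKO, at 7.48, 12.3 and 12.9 in SOD1 and at 8.19, 5.82, 11.1 and 6.36 in SOD1_Clec7aKO. Hoxd4 did not overlap between SOD1 and nTg, Hoxd9 did not overlap between SOD1_Clec7aKO and Clec7aKO (it did with CPM divided by the TMM factors), and Hoxd8 did. The log2 fold change was -0.93 ± 0.26 in SOD1 against nTg (adjusted p = 0.00952) and -0.43 ± 0.24 in SOD1_Clec7aKO against Clec7aKO (adjusted p = 0.191) for Hoxd4, -0.23 ± 0.21 in SOD1 against nTg (adjusted p = 0.421) and -0.60 ± 0.22 in SOD1_Clec7aKO against Clec7aKO (adjusted p = 0.0400) for Hoxd8, and -0.13 ± 0.26 in SOD1 against nTg (adjusted p = 0.722) and -0.78 ± 0.27 in SOD1_Clec7aKO against Clec7aKO (adjusted p = 0.0354) for Hoxd9.

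**Figure D5:**
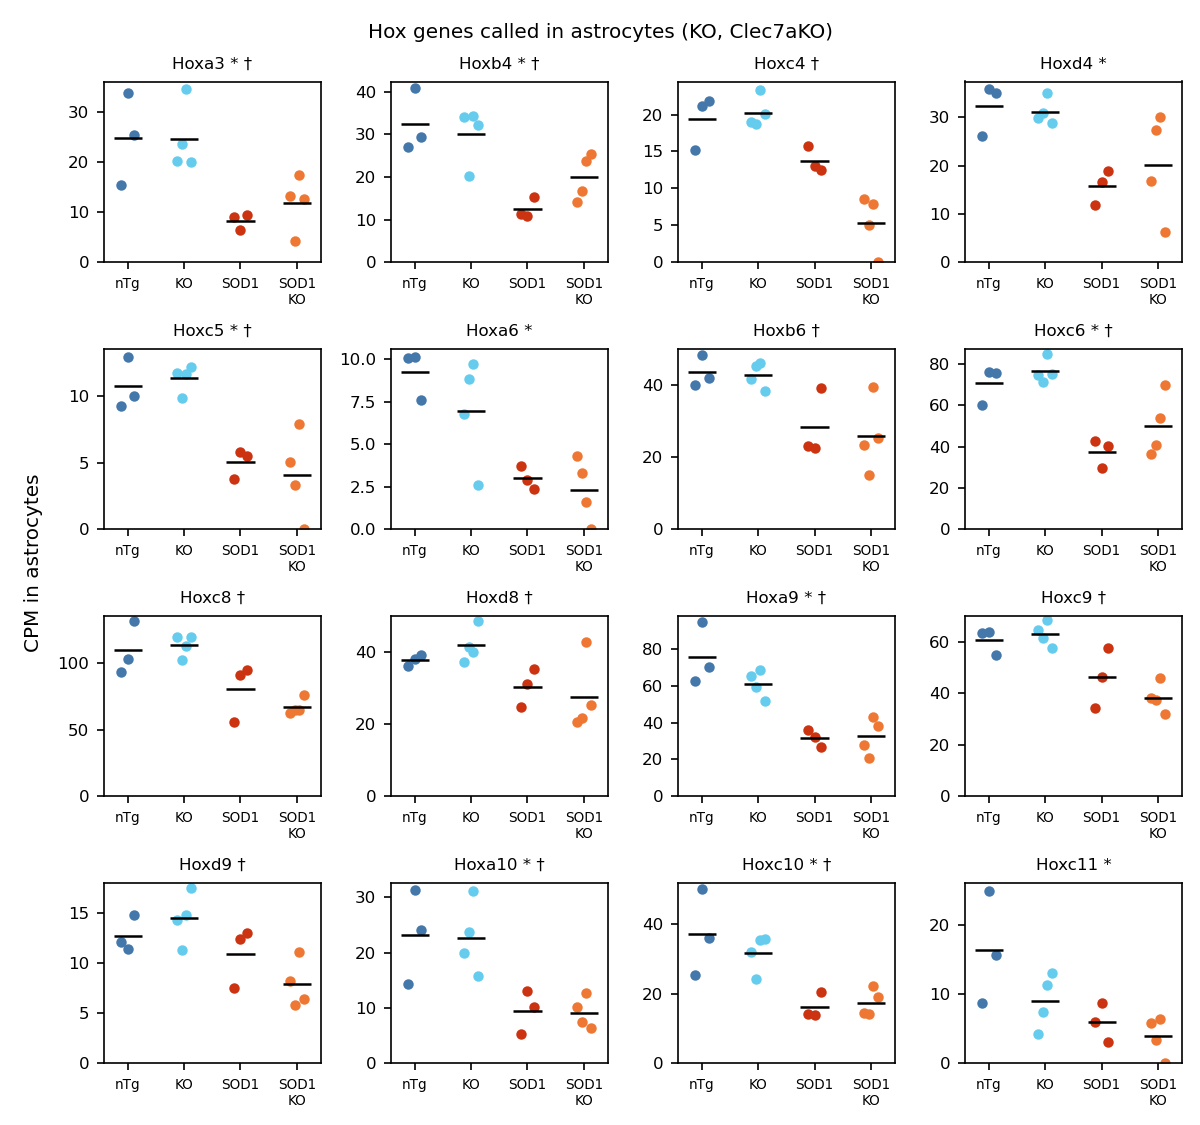
Level of the 16 Hox genes called in astrocytes (1 panel a gene, vertical axis CPM), with 1 point a library in the 4 groups nTg, KO (Clec7aKO), SOD1 and SOD1 KO (SOD1_Clec7aKO) and a line at the group mean. A star marks a call in SOD1 against nTg (10 genes) and a dagger one in SOD1_Clec7aKO against Clec7aKO (13 genes), and in every panel so marked the group with the transgene has the lower mean.

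Other measures of these astrocytes, and of their libraries as a whole, moved with the same groups. UMIs of the microglial markers made up 0.0267 to 0.0623% of astrocyte UMIs in nTg, 0.0612 to 0.282% in Clec7aKO, 0.211 to 1.53% in SOD1 and 0.521 to 1.47% in SOD1_Clec7aKO. With cells over 0.5% of such UMIs left out, an alternative added after the data were seen, 9 Hox genes fell in SOD1 against nTg and 6 in SOD1_Clec7aKO against Clec7aKO. Of the 2 astrocyte clusters, the one led by A2m, Gfap and C3, genes of reactive astrocytes, held 10.5% of the astrocytes in nTg, 11.3% in Clec7aKO, 56.3% in SOD1 and 56.0% in SOD1_Clec7aKO. Within the other cluster alone the summed Hox level was still lower with the transgene, at 800.0 to 1059 CPM in nTg against 666 to 698 in SOD1, and at 868 to 999.6 in Clec7aKO against 608 to 831 in the 3 SOD1_Clec7aKO libraries with enough cells. In the cluster led by A2m, Gfap and C3, the summed level was 634 to 934 CPM in nTg and 411 to 673 in SOD1, which overlapped, and 685 to 843 in Clec7aKO against 465 to 535 in those 3 SOD1_Clec7aKO libraries, which did not. In the other cluster 4 Hox genes fell in SOD1 against nTg and 1 in SOD1_Clec7aKO against Clec7aKO, from fewer cells. For this cluster and for the cells with few microglial UMIs, the shares of all genes called are not given here. Their counts of Hox genes are thus not set against other genes. Over all barcodes of a library the median mitochondrial share of UMIs, a measure of cell and RNA quality, was 1.47 to 2.15% in SOD1 against 2.61 to 4.46% in nTg, and 0.889 to 1.58% in SOD1_Clec7aKO against 1.90 to 4.60% in Clec7aKO. That median covers all cell classes and is not given for astrocytes alone. What part these shares have in the lower levels was not tested. Leaving out SOD1_Clec7aKO replicate 2 took the count of 13 to 5, leaving out SOD1_Clec7aKO replicate 1 to 7 and leaving out Clec7aKO replicate 3 to 8. Over 23 alternatives Hoxa3, Hoxa9, Hoxa10 and Hoxc6 remained called in SOD1 against nTg and Hoxc4 in SOD1_Clec7aKO against Clec7aKO, and each other call was lost in at least 1.

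In microglia 16 Hox genes passed the filter, and 1 of them, Hoxa7, fell in SOD1 against nTg (32.9% of all genes called either way, 13.2% lower), by 1.67 ± 0.45 on the log2 scale (adjusted p = 0.0104). In SOD1_Clec7aKO against Clec7aKO 5 of 16 fell (44% either way, 19.8% lower): Hoxa7 (-1.12 ± 0.39, adjusted p = 0.0290), Hoxb8 (-1.58 ± 0.49, 0.0179), Hoxb6 (-1.85 ± 0.60, 0.0220), Hoxc10 (-2.03 ± 0.66, 0.0220) and Hoxc8 (-1.33 ± 0.52, 0.0491). Hoxb6 stood at 0.554, 0.893 and 0.875 CPM in nTg, at 1.65, 1.12, 0.717 and 0.586 in Clec7aKO, at 0.471, 0.153 and 0.179 in SOD1 and at 0.502, 0.0483, 0.146 and 0 in SOD1_Clec7aKO. Hoxc8 was at 1.66, 1.02 and 0.681 CPM in nTg, at 2.56, 0.714, 1.51 and 1.004 in Clec7aKO, at 0.890, 0.273 and 0.397 in SOD1 and at 0.857, 0.218, 0.291 and 0.207 in SOD1_Clec7aKO. Hoxc10 was at 0.554, 0.510 and 0.195 CPM in nTg, at 0.878, 0.134, 0.239 and 0.669 in Clec7aKO, at 0.183, 0.0852 and 0.159 in SOD1 and at 0.146, 0.0242, 0.0729 and 0.104 in SOD1_Clec7aKO. Hoxc8 and Hoxc10 overlapped between SOD1_Clec7aKO and Clec7aKO, and Hoxb6 did not. These are levels near 1 CPM, in cells where the summed level was 12.4 CPM. The part of free RNA from other cells in them, and in their differences between groups, was not tested. Microglia of nTg and Clec7aKO lay mostly in clusters with P2ry12 and Tmem119 among their leading genes, and those of the SOD1 groups mostly in 3 other clusters, so the class is not made of like cells across groups. The 5 calls fell to 0 without SOD1_Clec7aKO replicate 2 or without Clec7aKO replicate 1, and the 1 call to 0 without SOD1 replicate 2 or 3. In the largest microglial cluster alone, an alternative added after the data were seen, edgeR called 0 of 5 Hox genes tested in both contrasts, with 0 at an unadjusted p under 0.05 and fewer cells. The share of all genes called in that cluster is not given here. Hoxa7 was there at 0.45 (adjusted p = 0.889) in SOD1 against nTg and Hoxc8 at 0.15 (adjusted p = 0.974) in SOD1_Clec7aKO against Clec7aKO, so both changed sign. Hoxb4, the leading gene here, was not called (-0.05 ± 0.22, adjusted p = 0.872, and -0.36 ± 0.20, adjusted p = 0.152).

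In ependymal cells edgeR called 0 of 33 Hox genes in each of the 4 contrasts (1.13% of all genes called in SOD1 against nTg, 0.0261% of all genes called in SOD1_Clec7aKO against SOD1, 0.0261% of all genes called in Clec7aKO against nTg, 1.36% of all genes called in SOD1_Clec7aKO against Clec7aKO). There were 5, 3, 4 and 3 at an unadjusted p under 0.05 in that order. DESeq2 also called 0. Hoxb6, the gene with the smallest p in both contrasts of the transgene, stood at 24.98, 26.7 and 28.03 CPM in nTg, at 25.4, 36.4, 29.7 and 19.4 in Clec7aKO, at 17.5, 11.5 and 18.3 in SOD1 and at 19.5, 14.4, 13.8 and 19.6 in SOD1_Clec7aKO. It differed by -0.71 ± 0.22 (adjusted p = 0.244) in SOD1 against nTg, without overlap, and by -0.72 ± 0.20 (adjusted p = 0.0930) in SOD1_Clec7aKO against Clec7aKO, with overlap. Hoxc12, smallest in SOD1_Clec7aKO against SOD1, stood at 6.12, 4.53 and 2.74 CPM in nTg, at 0.454, 1.05, 2.60 and 2.20 in Clec7aKO, at 0, 9.46 and 3.11 in SOD1 and at 1.25, 0, 1.73 and 3.93 in SOD1_Clec7aKO. Hoxd9, smallest in Clec7aKO against nTg, stood at 37.9, 39.5 and 34.4 CPM in nTg, at 18.1, 28.7, 33.96 and 23.6 in Clec7aKO, at 13.5, 23.4 and 29.7 in SOD1 and at 28.1, 26.8, 30.1 and 23.6 in SOD1_Clec7aKO. Hoxc12 differed by -2.22 ± 0.71 (adjusted p = 0.643) with overlap, and Hoxd9 by -0.46 ± 0.18 (adjusted p = 1) without.

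In OPC edgeR called 0 of 26 Hox genes in each of the 4 contrasts (0.907% of all genes called in SOD1 against nTg, 0.00756% of all genes called in SOD1_Clec7aKO against SOD1, 0.0151% of all genes called in Clec7aKO against nTg, 3.67% of all genes called in SOD1_Clec7aKO against Clec7aKO). There were 4, 1, 0 and 4 at an unadjusted p under 0.05 in that order. DESeq2 also called 0. Hoxd9, smallest in SOD1 against nTg, stood at 19.9, 29.1 and 21.7 CPM in nTg, at 21.1, 16.2, 20.8 and 21.7 in Clec7aKO, at 14.8, 15.3 and 10.1 in SOD1 and at 11.8, 8.33, 13.04 and 9.98 in SOD1_Clec7aKO. Hoxb6, smallest in both contrasts that hold SOD1_Clec7aKO, stood at 7.84, 7.499 and 9.57 CPM in nTg, at 9.71, 11.5, 7.72 and 9.65 in Clec7aKO, at 5.98, 8.44 and 7.55 in SOD1 and at 3.29, 2.08, 7.17 and 1.66 in SOD1_Clec7aKO. Hoxc11, smallest in Clec7aKO against nTg, stood at 7.19, 8.44 and 8.44 CPM in nTg, at 4.44, 1.58, 3.86 and 7.84 in Clec7aKO, at 1.76, 5.19 and 3.59 in SOD1 and at 1.88, 0, 3.26 and 0 in SOD1_Clec7aKO. Hoxd9 differed by -0.76 ± 0.23 (adjusted p = 0.147) without overlap. Hoxb6 differed by -0.82 ± 0.38 (adjusted p = 0.592) against SOD1, with overlap, and by -1.22 ± 0.36 (adjusted p = 0.0680) against Clec7aKO, without, and Hoxc11 by -0.85 ± 0.50 (adjusted p = 1).

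In neurons edgeR called 0 of 29 Hox genes in each of the 4 contrasts (1.19% of all genes called in SOD1 against nTg, 0% of all genes called in SOD1_Clec7aKO against SOD1, 0.191% of all genes called in Clec7aKO against nTg, 0.431% of all genes called in SOD1_Clec7aKO against Clec7aKO). There were 0, 3, 0 and 3 at an unadjusted p under 0.05 in that order. DESeq2 also called 0. Hoxd4, smallest in SOD1 against nTg, stood at 31.4, 40.2 and 45.6 CPM in nTg, at 23.2, 33.9, 39.4 and 21.1 in Clec7aKO, at 12.2, 26.01 and 30.8 in SOD1 and at 16.9, 29.1 and 31.4 in SOD1_Clec7aKO. Hoxd11, of the lumbosacral cord and smallest in both contrasts that hold SOD1_Clec7aKO, stood at 40.1, 15.7 and 36.2 CPM in nTg, at 13.7, 13.1, 49.8 and 15.1 in Clec7aKO, at 7.30, 36.7 and 21.3 in SOD1 and at 7.96, 0 and 3.14 in SOD1_Clec7aKO. Hoxb9, smallest in Clec7aKO against nTg, stood at 65.6, 128 and 87.8 CPM in nTg, at 314, 227, 114 and 123 in Clec7aKO, at 322, 47.4 and 109 in SOD1 and at 194, 97.1 and 185 in SOD1_Clec7aKO. Hoxd4 differed by -0.70 ± 0.36 (adjusted p = 0.788) without overlap. Hoxd11 differed by -2.08 ± 0.88 (adjusted p = 0.873) against SOD1, with overlap, and by -2.13 ± 0.83 (adjusted p = 0.348) against Clec7aKO, without. Hoxb9 differed by 1.09 ± 0.51 (adjusted p = 1) with overlap.

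In endothelial cells edgeR called 0 of 16 Hox genes in each of the 4 contrasts (1.1% of all genes called in SOD1 against nTg, 0.00756% of all genes called in SOD1_Clec7aKO against SOD1, 0% of all genes called in Clec7aKO against nTg, 0.922% of all genes called in SOD1_Clec7aKO against Clec7aKO). There were 3, 0, 0 and 5 at an unadjusted p under 0.05 in that order. DESeq2 also called 0. Hoxa3, smallest in SOD1 against nTg, stood at 1.32, 1.90 and 1.74 CPM in nTg, at 1.72, 1.01, 1.09 and 0.150 in Clec7aKO, at 0.191, 0.761 and 0.325 in SOD1 and at 1.06, 0, 0.961 and 0.439 in SOD1_Clec7aKO. Hoxc6, smallest in SOD1_Clec7aKO against SOD1, stood at 1.32, 1.13 and 1.26 CPM in nTg, at 2.003, 1.08, 0.622 and 1.05 in Clec7aKO, at 0.953, 0.609 and 0.975 in SOD1 and at 2.13, 3.45, 0.961 and 0.877 in SOD1_Clec7aKO. Hoxa3 differed by -1.85 ± 0.70 (adjusted p = 0.560) without overlap, and Hoxc6 by 1.06 ± 0.54 (adjusted p = 0.683) with overlap. Hoxa9, smallest in Clec7aKO against nTg, stood at 7.98, 8.40 and 4.90 CPM in nTg, at 6.77, 4.57, 3.58 and 3.30 in Clec7aKO, at 4.19, 5.94 and 5.52 in SOD1 and at 2.76, 7.40, 4.57 and 3.95 in SOD1_Clec7aKO. Hoxb8, smallest in SOD1_Clec7aKO against Clec7aKO, stood at 5.78, 9.78 and 5.53 CPM in nTg, at 9.35, 5.26, 10.6 and 10.04 in Clec7aKO, at 4.77, 6.70 and 4.55 in SOD1 and at 3.83, 5.42, 5.05 and 4.39 in SOD1_Clec7aKO. Hoxa9 differed by -0.62 ± 0.31 (adjusted p = 1) and Hoxb8 by -0.94 ± 0.28 (adjusted p = 0.205), both with overlap.

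In mural cells edgeR called 0 of 18 Hox genes in each of the 4 contrasts (0.107% of all genes called in SOD1 against nTg, 0% of all genes called in SOD1_Clec7aKO against SOD1, 0% of all genes called in Clec7aKO against nTg, 0.533% of all genes called in SOD1_Clec7aKO against Clec7aKO). There were 0, 2, 0 and 2 at an unadjusted p under 0.05 in that order. DESeq2 also called 0. Hoxa9, smallest in SOD1 against nTg, stood at 54.1, 72.4 and 56.3 CPM in nTg, at 57.5, 45.7, 69.2 and 32.3 in Clec7aKO, at 40.98, 36.9 and 46.8 in SOD1 and at 54.2, 44.5, 55.96 and 32.5 in SOD1_Clec7aKO. Hoxc10, smallest in SOD1_Clec7aKO against SOD1, stood at 50.4, 64.8 and 56.3 CPM in nTg, at 57.5, 34.7, 41.5 and 64.5 in Clec7aKO, at 51.2, 51.7 and 70.2 in SOD1 and at 31.6, 8.89, 31.6 and 37.2 in SOD1_Clec7aKO. Hoxa9 differed by -0.54 ± 0.29 (adjusted p = 1) and Hoxc10 by -0.90 ± 0.34 (adjusted p = 0.583), both without overlap. Hoxb3, a hindbrain gene, smallest in Clec7aKO against nTg, stood at 29.3, 17.1 and 12.5 CPM in nTg, at 28.7, 42.1, 43.9 and 37.2 in Clec7aKO, at 13.7, 29.6 and 18.2 in SOD1 and at 4.52, 44.5, 34.1 and 23.2 in SOD1_Clec7aKO. Hoxb5, smallest in SOD1_Clec7aKO against Clec7aKO, stood at 18.3, 22.9 and 12.5 CPM in nTg, at 20.8, 21.9, 2.31 and 32.3 in Clec7aKO, at 10.2, 12.3 and 25.98 in SOD1 and at 22.6, 17.8, 55.96 and 51.1 in SOD1_Clec7aKO. Hoxb3 differed by 0.79 ± 0.38 (adjusted p = 0.999) and Hoxb5 by 1.11 ± 0.48 (adjusted p = 0.616), both with overlap.

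Among the genes that passed the filter, the loss of Clec7a called no Hox gene in any class, with the transgene (SOD1_Clec7aKO against SOD1) or without it (Clec7aKO against nTg). Over the 166 gene and class combinations edgeR called 0 in each, with 10 and 5 at an unadjusted p under 0.05, and DESeq2 called 0 in each, with 8 and 5. With no filter on low counts edgeR called 5 and 3, and the shares of all genes called in that setting are not given here. In astrocytes 0.00765% and 0% of all genes were called, and in microglia 0.0241% and 0.0241%. The test of whether the Clec7a effect differed with the transgene called 0 of 166, with 3 at an unadjusted p under 0.05 (2 by DESeq2), where 0 to 0.00653% of all genes were called. In astrocytes the smallest p belonged to Hoxc4 with the transgene (-0.95 ± 0.31 (adjusted p = 0.966), without overlap) and to Hoxc11 without it (-0.97 ± 0.41 (adjusted p = 1)). Hoxa5, the smallest in microglia without the transgene, stood at 0.515, 0.383 and 0.0973 CPM in nTg, at 0.695, 0.625, 0.478 and 0.837 in Clec7aKO, at 0.183, 0.187 and 0.179 in SOD1 and at 0.502, 0.169, 0.255 and 0.104 in SOD1_Clec7aKO. It differed by 0.91 ± 0.49 (adjusted p = 1), and Hoxb4, the smallest with the transgene, by -0.34 ± 0.21 (adjusted p = 0.575), both with overlap. Over the same 166 the transgene called 11 in SOD1 against nTg and 18 in SOD1_Clec7aKO against Clec7aKO, all lower (11 and 17 by DESeq2). All lay in astrocytes (10 and 13, beside 35.4% and 33.4% of all genes called either way) and microglia (1 and 5, beside 32.9% and 44%).

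Hotairm1 was most abundant in mural cells (63.3 CPM), ependymal cells (51.6) and astrocytes (48.3), with 29.7 CPM in OPC, 11.2 in neurons, 2.61 in endothelial cells and 0.372 in microglia. Neurons, first in summed Hox level, thus ranked under OPC for Hotairm1. In ependymal cells Hotairm1 stood at 70.8, 54.7 and 84.8 CPM in nTg, at 72.6, 65.6, 69.9 and 74.9 in Clec7aKO, at 18.9, 21.3 and 38.2 in SOD1 and at 39.8, 21.7, 50.04 and 39.3 in SOD1_Clec7aKO. SOD1 lay under nTg, with a log2 fold change of -1.25 ± 0.27 (edgeR, adjusted p = 0.0244), the 1 gene called of the 8 noncoding RNAs of the Hox clusters tested there (1.13% of all genes called either way), and SOD1_Clec7aKO against Clec7aKO gave -0.86 ± 0.24 (adjusted p = 0.0928). In astrocytes Hotairm1 stood at 45.97, 47.3 and 59.01 CPM in nTg, at 54.8, 44.3, 50.9 and 92.3 in Clec7aKO, at 14.2, 21.1 and 51.4 in SOD1 and at 24.6, 13.3, 74.4 and 82.7 in SOD1_Clec7aKO. The groups overlapped and Hotairm1 was not called (-0.68 ± 0.46, adjusted p = 0.269, and -0.61 ± 0.45, adjusted p = 0.324). In microglia it was at 0 to 1.32 CPM and fell in SOD1_Clec7aKO against Clec7aKO (-1.89 ± 0.51, adjusted p = 0.00849).

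Of the noncoding RNAs of the clusters, Hotairm1 included, 2 of 8 tested in astrocytes were called in SOD1 against nTg, both lower, where 35.4% of all genes were called either way: Hoxb3os (-1.82 ± 0.28, adjusted p = 0.000182) and Hoxd3os1 (-1.23 ± 0.35, adjusted p = 0.0116). In SOD1_Clec7aKO against Clec7aKO 3 of 8 were called, all lower, where 33.4% of all genes were called: Hoxb3os (-1.97 ± 0.28, adjusted p = 8.46e-05), Hoxaas2 (-2.25 ± 0.62, adjusted p = 0.0103) and Hotair (-1.66 ± 0.56, adjusted p = 0.0296). Hoxb3os, at 59.3 CPM in astrocytes and 181.9 CPM in mural cells, spans Hoxb2 and the end of Hoxb3 on the other strand. Whether the counting used strand is not given in the sources used here, so reads of such partners cannot be told apart. In microglia 1 of 3 fell in SOD1 against nTg (32.9% of all genes called either way), Hoxd3os1 (-2.25 ± 0.80, adjusted p = 0.0424), and 3 of 3 in SOD1_Clec7aKO against Clec7aKO (44%), where Hoxb3os gave -1.98 ± 0.46 and Hoxd3os1 -2.44 ± 0.74.

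The TALE proteins of the Pbx, Meis and Prep families bind DNA together with Hox proteins. Of 9 tested in astrocytes 3 fell in SOD1 against nTg, where 35.4% of all genes were called either way, among them Meis2 (-0.92 ± 0.16, adjusted p = 0.000528) and Meis1 (-1.12 ± 0.21, adjusted p = 0.000657). Pbx4 rose (1.76 ± 0.54, adjusted p = 0.0181), and the list's median log2 fold change was -0.11. In SOD1_Clec7aKO against Clec7aKO (33.4% of all genes called) 3 fell, again with Meis1 (-1.06 ± 0.20) and Meis2 (-0.68 ± 0.15), with none higher and a median of -0.21. In microglia Meis3 rose and Pbx3 and Meis2 fell of 8 tested in SOD1 against nTg (32.9% of all genes called), and in SOD1_Clec7aKO against Clec7aKO (44%) Meis3 rose (0.98 ± 0.20) and Meis1, Pbx3 and Pknox1 fell, Meis1 by 0.87 on the log2 scale.

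Polycomb proteins silence and trithorax proteins maintain Hox genes. In astrocytes 5 of 19 fell and 1 rose in SOD1 against nTg, where 35.4% of all genes were called either way. Those lower were the trithorax genes Kmt2b and Kmt2a (-0.76 ± 0.23), Ring1, Suz12 (-0.68 ± 0.22) and the demethylase gene Kdm6a, and the one higher was Phc2 (0.54 ± 0.19). In SOD1_Clec7aKO against Clec7aKO (33.4%) Suz12 (-0.92 ± 0.22), Ring1 and Kdm6a fell and none rose. Ezh2, the methyltransferase of Polycomb complex 2, rose in OPC of SOD1_Clec7aKO against Clec7aKO (0.90 ± 0.18, adjusted p = 0.0121; 3.67% of all genes called either way) and in microglia (0.98 ± 0.18 and 1.02 ± 0.16). Of 21 tested in microglia 4 and 6 were called in the 2 contrasts, where 32.9% and 44% of all genes were: Men1 also rose and Cbx8 fell in both contrasts, and Pcgf2 rose and Cbx7 fell in the second. The OPC cluster with the cell division genes Top2a and Cenpf among its leading genes held 0.960% of OPC in Clec7aKO and 4.11% in SOD1_Clec7aKO. The microglial cluster with these genes held 0.568% in nTg, 5.61% in SOD1, 0.788% in Clec7aKO and 6.37% in SOD1_Clec7aKO. The part of these clusters in the Ezh2 values was not tested.

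Retinoic acid induces Hox genes in the embryo. Of 8 retinoid genes tested in astrocytes, the receptor gene Rara rose in SOD1 against nTg, where 35.4% of all genes were called (1.69 ± 0.63, adjusted p = 0.0452). Of 6 tested in microglia (32.9% and 44% of all genes called) the receptor gene Rxrg rose in both contrasts (1.85 ± 0.42 and 3.32 ± 0.41) and Rarg fell in the first (-0.89 ± 0.24). Of the regional genes of the head and brain, 3 passed the filter in astrocytes, none was called in SOD1 against nTg, and all 3 fell in SOD1_Clec7aKO against Clec7aKO (33.4% of all genes called): Irx3 (-0.83 ± 0.24, adjusted p = 0.0143), Irx1 (-1.33 ± 0.39) and Irx2 (-1.41 ± 0.46); Irx3 is also a gene of the embryonic cord. Otx2, Emx1, Emx2 and Six3 had no UMI in astrocytes, and no Cdx gene, which switch on Hox genes in the embryo, passed the filter in any class tested. The loss of Clec7a called none of these lists' genes that passed the filter in any class.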

How the data were processed

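Single-cell RNA sequencing of whole spinal cords was done with the Chromium 3' v3.1 kit after enzymatic dissociation and removal of myelin, per the labels' protocols. The authors deposited raw UMI counts per gene and barcode for each of the 14 libraries, and per the file headers the matrices were written by software version 3.0.2. Cell Ranger, Seurat, DESeq2 and mm10 are named in the submitters' processing notes, without versions, and whether counting used strand is not given in the sources used here.

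Cells under 500 genes or 1000 UMIs, or over 15% mitochondrial UMIs, were left out, and doublets were removed with Scrublet at 0.8% per 1000 barcodes of a library. Cells were clustered in scanpy 1.11.5 (2000 variable genes without those of the Hox clusters, 30 principal components, 15 neighbours, Leiden resolution 1.0) and clusters were named from marker lists. Counts were summed per library and class with at least 20 cells. Groups were compared in edgeR 4.0.16 (quasi-likelihood, TMM, all libraries in 1 fit, Benjamini-Hochberg adjustment over all genes tested), and classes with the library as a block. On simulated counts for the astrocyte comparison of SOD1 with nTg, with 200 changed genes, the fit was tested first. Summed levels used log2 with 1 CPM added, and shares and co-detection used exact sign-flip or permutation tests. Alternatives were other scaling, filters, DESeq2 1.42.0, a replicate block, other clusterings and leaving out each library.

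The Hox genes and the other lists were chosen with earlier results of these data known. Values by library are given for the 3 Hox genes with the highest mean CPM in each class, the highest of each paralog group in astrocytes, each Hox gene called between groups or, where none was, the one with the smallest p. Between classes the 5 called Hox genes with the largest change are named, and of other lists at most 4 members by smallest p. Some genes that these rules name are not reported here.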

Additional observations from a re-analysis of the deposited data

Results flagged for a closer look

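In groups of 4 libraries, 8 of 98 sets of values held a library whose gap to its nearest neighbour exceeded Dixon's critical share of the group's range, where chance gives about 1 in 20. The summed Hox level of OPC was 878 CPM in Clec7aKO replicate 3. Hoxc8 in OPC stood at 129 CPM in the same library. Hoxd8 in OPC stood at 117 CPM in Clec7aKO replicate 4. The share of paralog groups 9 to 13 was 15.7% in ependymal cells and 24.4% in mural cells of Clec7aKO replicate 1, low in the former and high in the latter. Hoxa7 in microglia stood at 3.22 CPM in that library. Hoxb4 in astrocytes stood at 20.2 CPM in Clec7aKO replicate 2, under the other 3 libraries of the group. Hoxc8 in microglia stood at 0.857 CPM in SOD1_Clec7aKO replicate 1, above the other 3.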

How the results depend on the processing

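The labels do not say that replicate numbers pair the samples, and the main fit did not use them. Of 90 same-numbered pairs 49 correlated over 0.1, from -0.374 to 0.410. Pairs with different numbers were not compared, so these values do not settle whether samples were paired. With a replicate block the calls over all classes were 11 in SOD1 against nTg, 0 in SOD1_Clec7aKO against SOD1, 0 in Clec7aKO against nTg and 20 in SOD1_Clec7aKO against Clec7aKO. For the 2 transgene contrasts they were 10 and 13 in astrocytes and 1 and 7 in microglia. In the leading cluster of each class the calls were 4 and 2 over all classes, 4 and 1 in astrocytes and 0 and 0 in microglia, from fewer cells; Hoxa7 in microglia changed sign to 0.45 and Hoxc8 in microglia to 0.15. With few microglia UMIs SOD1_Clec7aKO against Clec7aKO called 11 over all classes and 6 in astrocytes. With no filter on low counts the Clec7a contrasts called 5 with and 3 without the transgene, and the class pairs called 22 (endothelial against microglia), 30 (mural against endothelial) and 35 (endothelial against astrocytes), from more genes tested. The shares of all genes called are not given for the alternatives of this section, so their counts are descriptions. With doublets kept microglia gave 2 and 2 calls, and with Hox genes allowed in the clustering 9 in the second contrast. Only 1 Hox gene was then among the variable genes, so that clustering hardly tests leaving them out. Astrocyte summed level in SOD1_Clec7aKO against SOD1 was 0.0065 with few microglia UMIs and 0.022 in the leading cluster, and OPC against astrocytes was -0.042 with Hox genes allowed in the clustering and -0.11 with doublets kept.

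With groups 10 to 13 only, the caudal share differed by 3.16 (ependymal against astrocytes), 3.14 (OPC against astrocytes), 0.412 (mural against astrocytes), 6.33 (mural against endothelial) and -0.986 (microglia, SOD1_Clec7aKO against Clec7aKO), and r with astrocytes was 0.45 for endothelial and 0.48 for mural cells. At 4000 UMIs a cell the co-detection difference was 0.37 in astrocytes, 0.26 in ependymal cells and 0.14 in neurons (adjusted p = 0.0599), with 0.20 and -0.062 for ependymal cells with group 9 and with groups 4 and 5, and 0.12 for OPC with group 9. Without thinning astrocytes gave 0.16 with groups 4 and 5 and a difference of 0.28, ependymal cells 0.19 with group 9 and 0.063 with groups 4 and 5, OPC 0.25, 0.12 and a difference of 0.13, neurons 0.17 and mural cells 0.11 with groups 4 and 5.

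Leaving out 1 library at a time gave 5 to 21 calls over all classes in SOD1_Clec7aKO against Clec7aKO, 5 to 15 in astrocytes, 0 to 8 in microglia and 0 to 2 in microglia of SOD1 against nTg, and 13 to 21 for mural cells against microglia. Summed levels ran from -0.12 to 0.051 (astrocytes, Clec7aKO against nTg), -0.13 to 0.070 (astrocytes, SOD1_Clec7aKO against SOD1) and -0.32 to 0.025 (mural, the same). The caudal share of Hox UMIs between groups, ependymal, SOD1 against nTg, ran from -7.44 to 2.07 (without SOD1 replicate 1), and others ran from -1.001 to 3.30 (ependymal, SOD1_Clec7aKO against Clec7aKO) and -1.17 to 1.75 (microglia, the same). Co-detection ran from 0.21 to 0.29 with group 9, -0.068 to 0.052 with groups 4 and 5 and 0.21 to 0.33 for the difference in astrocytes, from -0.086 to 0.11, -0.074 to 0.029 and -0.080 to 0.18 in OPC, from 0.025 to 0.27 with group 9 and -0.022 to 0.25 for the difference in ependymal cells, and from 0.40 to 0.57 with group 9 in mural cells. With CPM divided by the TMM factors, Hoxb6 in ependymal cells and Hoxb8 and Hoxb9 in endothelial cells no longer overlapped in SOD1_Clec7aKO against Clec7aKO, and Hoxb6 in OPC did. Where not given, the cause of a change was not tested. Values in microglia rest on 4352 Hox UMIs in all, and those in astrocytes of SOD1_Clec7aKO replicate 4 on 35 cells.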

Other observations

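Cells outside the 7 classes carried Hox RNA at levels from the microglial to the mural range, given here as pooled values over libraries without a test. Fibroblasts (98 cells) stood at 1271 CPM, with 40.4% of their Hox UMIs from paralog groups 9 to 13. T and NK cells (777 cells) stood at 19.5 CPM and border-associated macrophages (605 cells) at 22.2 CPM. A cluster of 4007 cells that held markers of endothelial and of mural cells, and was left unnamed, stood at 426 CPM, between these 2 classes.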
